A study of Mus musculus with 5 samples.

Results

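The Hox genes are the 39 protein-coding genes of the mouse whose symbol begins with Hoxa, Hoxb, Hoxc or Hoxd followed by a number. All 39 were chosen by their symbol, without use of any measured value, and all 39 are among the 27729 genes in the deposited files. RNA was sequenced from mouse embryonic fibroblasts (MEFs), cultured connective tissue cells of ICR mouse embryos, in MEF medium with serum (day 0) and after 2, 5, 10 and 14 days in 5C medium, which induces neuron-like cells. Apart from its base medium (DMEM/F12), 5C medium is serum-free and holds the N2 supplement, the growth factor bFGF and the cytokine LIF, as well as vitamin C and a reducing agent. According to the methods, the embryos were used without head and internal organs, the cells were passaged after thawing, and weakly attached cells were removed with trypsin. The starting cells therefore mix trunk and limb levels of several tissues and are not the progeny of 1 clone. The labels name the medium 6C and the last library day 14, whereas the treatment text beside it names a later day. There was 1 library per day, no genetic change in any group and no parallel culture kept in MEF medium. No difference between days has a replicate check, no test between days was possible, and time in culture and the medium cannot be told apart.

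Hox genes encode homeodomain transcription factors that record the position of a cell along the body axis. They lie in 4 clusters, and the genes that hold the same place in different clusters form a paralog group. Genes at the 3′ end of a cluster, with low group numbers, are used from the hindbrain backwards, and genes at the 5′ end, with high numbers, in the lumbar and tail region and in the distal limb. Cultured fibroblasts are known to keep a Hox pattern that reflects where in the body they were taken. Hox proteins bind DNA together with cofactors of the TALE class (Pbx, Meis and Pknox proteins), and Polycomb and MLL complexes keep Hox genes off or on.

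In GRCm38, which the submitters' processing notes name as mm10, the Hoxa cluster spans chromosome 6, 52155590 to 52260880, on the minus strand with 11 genes. The Hoxb cluster spans chromosome 11, 96194316 to 96368256, with 10 genes, the Hoxc cluster chromosome 15, 102921103 to 103036852, with 9 genes, and the Hoxd cluster chromosome 2, 74668310 to 74765142, with 9 genes, all 3 on the plus strand. To show what stands in front of members that moved in opposite directions, the 250 bases before the start site are given for Hoxd8, the member that stood furthest above day 0 on day 14, for Hoxb8, a member of the same paralog group that fell, and for Hoxa5, which fell as well. They were taken from RefSeq (GRCm38.p6), which listed 22 of the 39 genes with 24 start sites in the table used here. Capitals mark matches of 5 short motifs, each searched on both strands. These are TGATNNAT, the composite site of PBX and HOX proteins, then TGACAG, the site of MEIS proteins, then the CCAAT box, then TATAAA, the TATA box, and finally AGGTCA, which is 1 arm of the paired sites of nuclear receptors. Each sequence is written 5′ to 3′ on the strand of its gene. None of the 3 windows overlaps an annotated exon.
Hoxd8, chr2:74704365-74704614, plus strand: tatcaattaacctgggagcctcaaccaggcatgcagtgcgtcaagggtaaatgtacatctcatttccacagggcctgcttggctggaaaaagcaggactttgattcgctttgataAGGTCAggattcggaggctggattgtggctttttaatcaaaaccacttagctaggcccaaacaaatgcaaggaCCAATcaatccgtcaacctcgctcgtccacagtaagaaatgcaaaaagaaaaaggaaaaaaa
Hoxb8, chr11:96281655-96281904, plus strand: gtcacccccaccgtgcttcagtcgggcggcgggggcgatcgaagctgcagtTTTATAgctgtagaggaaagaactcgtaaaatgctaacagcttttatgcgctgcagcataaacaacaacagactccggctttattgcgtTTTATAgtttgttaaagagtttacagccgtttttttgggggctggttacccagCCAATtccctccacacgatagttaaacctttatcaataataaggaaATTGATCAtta
Hoxa5, chr6:52204588-52204837, minus strand: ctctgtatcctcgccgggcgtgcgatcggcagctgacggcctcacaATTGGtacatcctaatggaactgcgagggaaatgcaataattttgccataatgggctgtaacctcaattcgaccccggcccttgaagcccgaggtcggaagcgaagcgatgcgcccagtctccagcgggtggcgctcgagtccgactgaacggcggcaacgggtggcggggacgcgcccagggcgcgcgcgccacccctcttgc
The window of Hoxd8 holds an AGGTCA and a CCAAT, that of Hoxb8 a TGATNNAT, a CCAAT and 2 matches of TATAAA, and that of Hoxa5 a CCAAT. They contain 6, 12 and 28 CpG dinucleotides, against a median of 12.5 over the 24 Hox windows and of 6 over all 32851 windows of this length. CCAAT occurs in 14 of the 24 Hox windows and in 33.8% of all windows, AGGTCA in 6 and 14.0%, TGATNNAT in 4 and 7.68%, TATAAA in 4 and 12.4%, and TGACAG in 2 and 15.9%. A match describes the letters only, and no binding was measured.

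The libraries held between 2253748 (day 2) and 3890334 (day 0) expected counts, RSEM's estimates of the reads of each gene. Hox genes took 0.0427% of them on day 0, 0.0336% on day 2 and between 0.0415% and 0.0423% on the later days, so most members rest on fewer than 100 counts. At least 1 count was found for 35 members on day 0 and for 33, 37, 38 and 36 on the later days. A total of 34 members reached 10 expected counts in at least 1 library. The other 5 were Hoxb1 with 0 in every library, Hoxd1 with at most 1, Hoxb13 with at most 4, Hoxc12 with at most 5 and Hoxd12 with at most 6, too few to show a change. Levels below are normalized counts, that is expected counts divided by the TMM effective library size, and intervals are exact 95% intervals of the counts. Reads were not tagged with molecular identifiers, and these intervals describe counting error alone and leave out variation between cultures or preparations. In these bulk samples fewer cells of a type and less RNA per cell cannot be told apart.

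On day 0 the MEFs carried a Hox pattern of the trunk with genes from all 4 clusters. Hoxb9, a gene of the thoracic and lumbar region, had the highest level per length with 35.7 (31.3 to 40.6) TPM (transcripts per 1000000, scaled for gene length), which was 12.5% of the summed Hox TPM. Hoxc6, a gene of the thoracic level, followed with 25.0 (20.6 to 30.1) TPM, and Hoxc8 with 22.3, Hoxb6 with 21.3 and Hoxc9 with 16.9 TPM came next. The intervals of Hoxb9 and Hoxc6 do not overlap, whereas those of Hoxc6, Hoxc8 and Hoxb6 do. These 5 genes belong to paralog groups 6, 8 and 9 of the Hoxb and Hoxc clusters. The Hoxc cluster gave 35.7% (33.4 to 38.1) of the Hox counts, Hoxb 35.1% (32.8 to 37.5), Hoxa 16.4% (14.7 to 18.3) and Hoxd 12.8% (11.2 to 14.5). Posterior genes (groups 9 to 13) gave 42.9%, central genes (5 to 8) 42.7% and anterior genes (1 to 4) 14.4%.

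**Figure D1:**
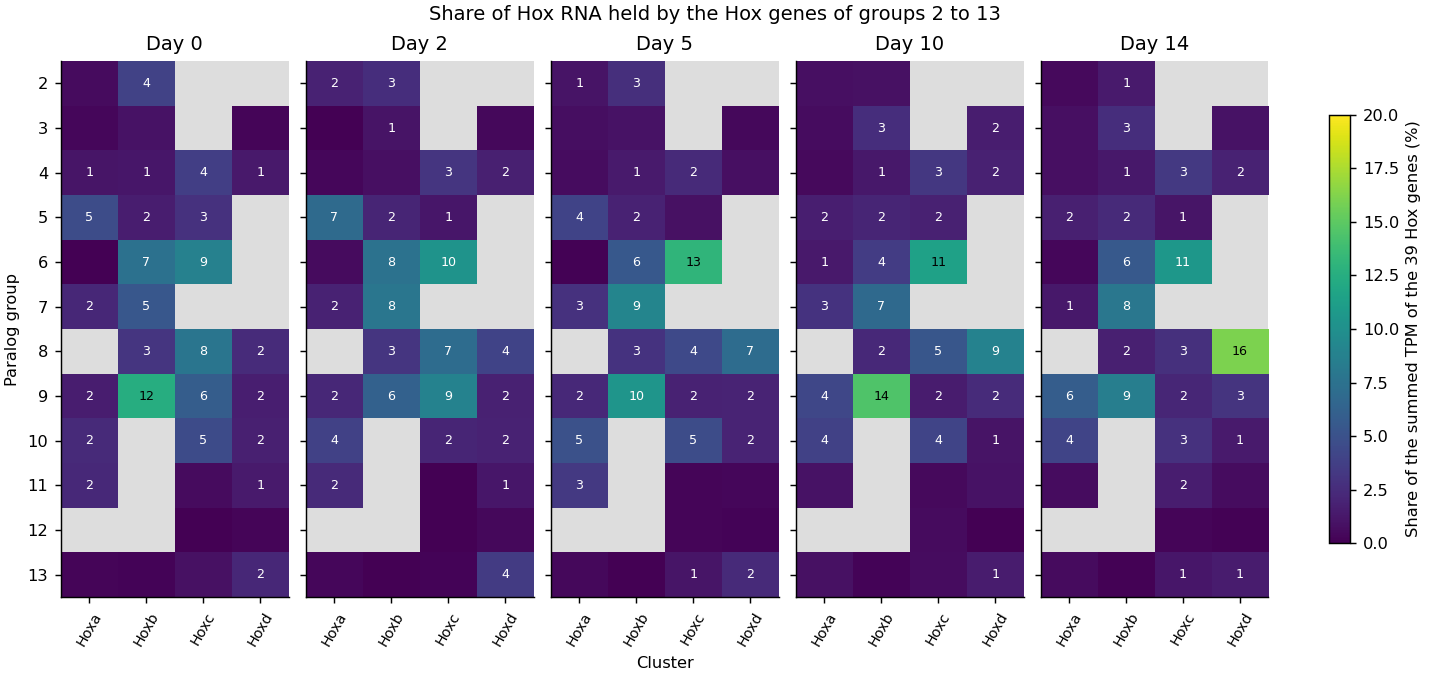
Share of the summed TPM of the 39 Hox genes held by each gene on each day, with clusters as columns and paralog groups 2 to 13 as rows (grey, no such gene in the mouse). Shares of 1% or more are printed, and Hoxb9 holds the largest share on days 0 and 10, Hoxc6 on days 2 and 5 and Hoxd8 on day 14.

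By day 14 the order had changed at its top. Hoxd8, a gene of the trunk in group 8 of the Hoxd cluster, now had the highest level with 70.5 (61.6 to 80.2) TPM or 16.1% of the summed Hox TPM. Behind it Hoxc6 was at 46.3 (38.4 to 55.4), Hoxb9 at 37.4 (31.7 to 43.9), Hoxb7 at 34.8 and Hoxa9 at 25.8 TPM. Hoxc8 and Hoxc9, 2 of the 5 highest genes on day 0, were at 12.2 and 9.25 TPM. The intervals of Hoxc6, Hoxb9 and Hoxb7 overlap, and that of Hoxd8 lies above all 3.

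Between clusters the main shift was from Hoxc to Hoxd. The Hoxd share of the Hox counts went from 12.8% to 18.0% (15.3 to 20.9), 17.5% (15.6 to 19.6), 22.1% (20.1 to 24.2) and, in the last library, 26.6% (24.3 to 29.0). The Hoxc share went from 35.7% to 33.4% (30.1 to 36.9), 26.9% (24.6 to 29.3), 26.3% (24.2 to 28.5) and 25.1% (22.9 to 27.5). A share within the family does not depend on how the libraries are scaled, and with TPM the Hoxd share also rose, from 11.6% to 25.8%, while the Hoxc share went from 35.1% to 25.9%. The Hoxb share was lowest on day 2 with 28.1% (25.0 to 31.5) and ended at 32.1% (29.7 to 34.6). The Hoxa share was highest on day 5 with 20.7% (18.7 to 22.9) and ended at 16.1% (14.3 to 18.2).

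Most of the rise of the Hoxd share came from 1 gene. Without Hoxd8, the Hoxd share over the 5 libraries was 9.85%, 13.4%, 9.97%, 12.0% and 12.5%. Summed over its 9 genes, Hoxd expression on day 14 was 0.69 (0.44 to 0.94) above day 0 on the log2 scale, whereas the other 8 genes together were at −0.22 (−0.55 to 0.11). With TPM these 8 genes together were at 0.70 and all 9 at 1.77, against 0.78 for the median of all genes. The shift away from Hoxc did not rest on Hoxd8, since without it the Hoxc share of the remaining counts was 36.9% on day 0 and 29.9% on day 14.

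**Figure D2:**
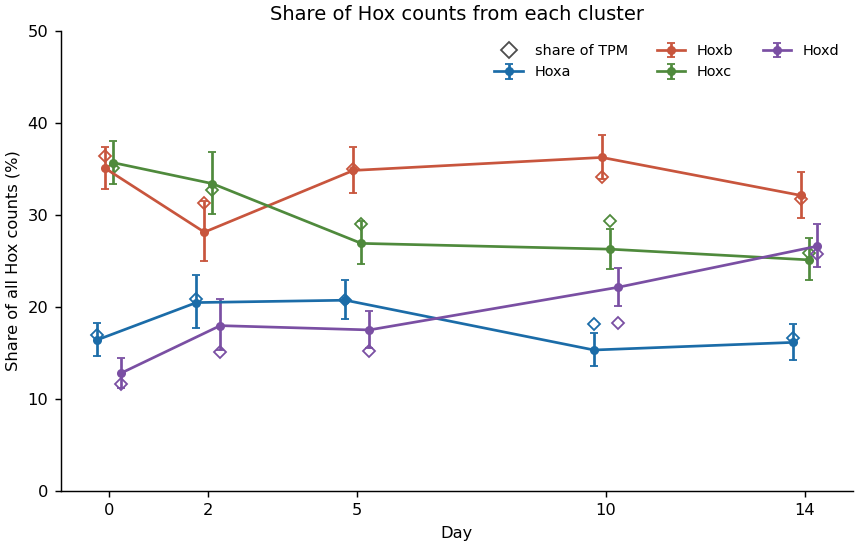
Share of all Hox counts (%) from each cluster against day, 1 library per day, with exact 95% binomial intervals as bars and shares of summed TPM as open diamonds. The Hoxd line climbs from 12.8% to 26.6%, and the Hoxc line falls from 35.7% to 25.1%.

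Along the body axis the change was smaller. Posterior genes gave 42.9% (40.5 to 45.3) of the Hox counts on day 0, then 40.0%, 41.2% and 41.6%, and 38.7% (36.1 to 41.3) on day 14, so the intervals of day 0 and day 14 overlap. Central genes gave 42.7% (40.3 to 45.1) on day 0 and 46.1% (43.5 to 48.7) on day 14. Both directions turn without Hoxd8, a central gene. Of the counts that remain, central genes held 40.8% (38.4 to 43.2) at the start and 35.8% (33.1 to 38.6) in the last library, whereas posterior genes held 44.3% (41.9 to 46.8) before and 46.1% (43.2 to 48.9) after. Anterior genes gave 14.4% (12.8 to 16.2) of all Hox counts on day 0 and 15.2% (13.4 to 17.2) on day 14. Without Hoxd8 they held 14.9% (13.2 to 16.7) and 18.1% (16.0 to 20.4), with intervals that overlap. Overlapping intervals do not show that shares are equal, and the differences between days were not tested. The distal groups 11 to 13, used in the hand and foot and at the tail, gave 9.65% (8.27 to 11.2) on day 0 and 7.58% (6.26 to 9.08) on day 14.

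Summed over all 39 genes, Hox expression was below day 0 on each later day when libraries were scaled by TMM, with log2 changes of −0.26 (−0.39 to −0.14), −0.40 (−0.50 to −0.30), −0.51 (−0.61 to −0.41) and −0.37 (−0.47 to −0.26). This direction depends on the scaling. With summed TPM the changes on days 5, 10 and 14 were above 0, at 0.39, 0.73 and 0.61, and with total counts they were between −0.04 and −0.01. Short genes lost counts in the later libraries, and the mean length of a counted gene was 2279 bases on day 0 and 3351 bases on day 10. The median of all 13346 genes with 10 or more counts was 0.14 on day 10 with TMM and 1.09 with TPM. Against that median the Hox genes stood lower by both measures. Their own median on day 10 was −0.50 with TMM and 0.59 with TPM, which is 0.64 and 0.51 below the median of all genes. On day 14 the median Hox gene was 0.50 below the median gene with TMM and 0.41 below it with TPM. On day 10, 8 of the 34 members lay above the median of all genes, with either measure. On day 14, 13 did with TMM and 15 with TPM. From day 10 to day 14 the median Hox gene was 0.14 above the median gene with TMM and 0.19 above it with TPM. When all genes are split by length into 3 equal classes, 12 of the 34 members are in the shortest, 22 in the middle and 0 in the longest class, and the all-gene medians of these classes on day 10 were −0.81, 0.15 and 0.80 with TMM.

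Counted gene by gene with TMM scaling, more members fell over 2-fold than rose. Changes were counted over 2-fold on the log2 scale of normalized counts plus 1. On day 2, 2 members were over 2-fold above day 0 against 15.2% of all genes, and 8 were over 2-fold below it against 13.1% of all genes. On day 5 these numbers were 0 (20.2% of all genes) and 6 (13.6%), and on day 10 they were 3 (28.7%) and 13 (22.3%). On day 14 they were 4 (24.5%) and 10 (19.9%). The day 0 library is shared by these comparisons. Over the 4 later days together 5 members passed 2-fold upwards (37.8% of all genes), 19 downwards (34.7%), and 1 of these, Hoxc11, in both directions at different times (5.39%). The remaining 11, Hoxa9, Hoxa10, Hoxa13, Hoxb3, Hoxb4, Hoxb5, Hoxb7, Hoxc4, Hoxc6, Hoxd4 and Hoxd9, never passed 2-fold (32.8% of all genes did not). With TMM 21 of the 34 members were below day 0 on day 14 and with TPM 11 were, so a member named below with a small negative change on the TMM scale can be above day 0 with TPM. The counts over 2-fold also turn with TPM on days 10 and 14. On day 10, 12 members were then above day 0 (52.9% of all genes) and 3 below it (6.77%). On day 14 they were 11 (41.6%) and 1 (6.97%).

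By cluster, the 19 members that passed 2-fold downwards were 6 of Hoxa, 4 of Hoxb, 6 of Hoxc and 3 of Hoxd, and the 5 upwards were 2 of Hoxa (Hoxa2 and Hoxa6), 1 of Hoxc and 2 of Hoxd (Hoxd3 and Hoxd8). All 10 members over 2-fold below day 0 on day 14 were also below it with TPM, with total counts and with DESeq2 size factors. On day 10 this held for 8 of the 13, and Hoxb8, Hoxc5, Hoxc8, Hoxd11 and Hoxd13 were slightly above day 0 with TPM, by 0.07 to 0.26.

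**Figure D3:**
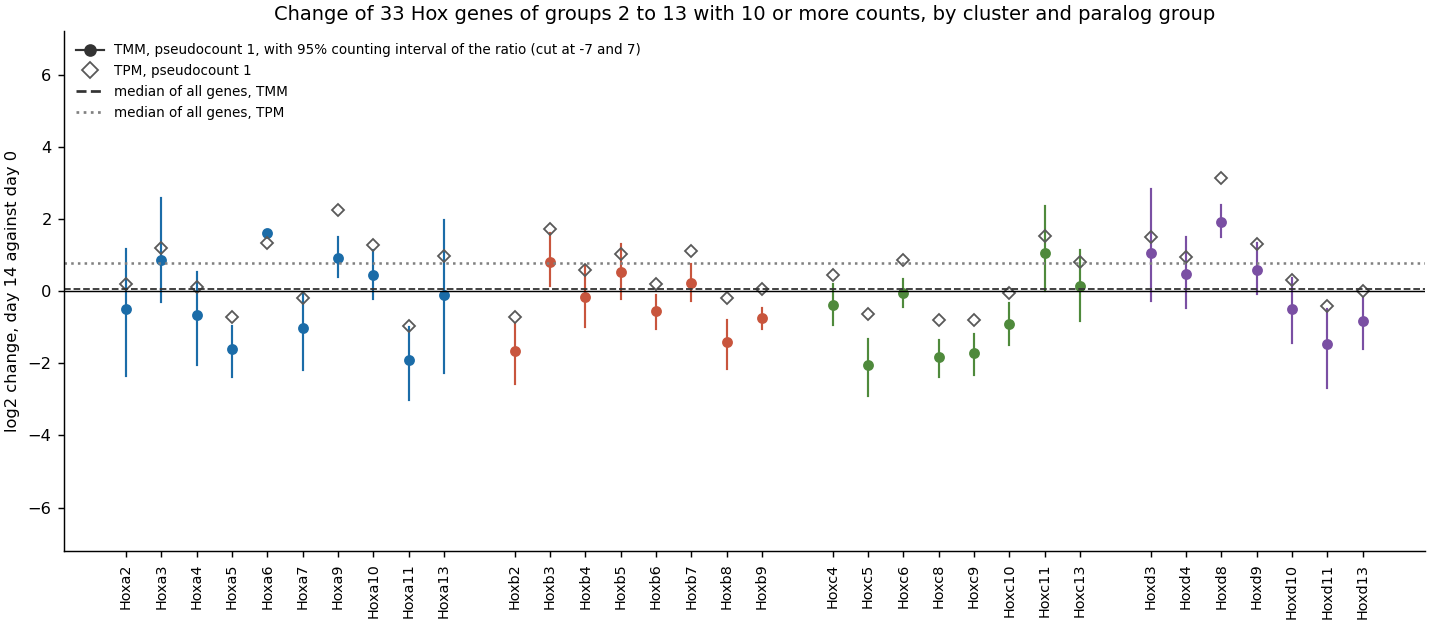
Log2 change on day 14 against day 0 for the 33 Hox genes of paralog groups 2 to 13 with 10 or more counts, ordered by cluster and paralog group, with TMM scaling (filled circles, bars are 95% counting intervals of the ratio) and TPM (open diamonds). Hoxd8 stands highest at 1.92 with TMM, and 20 of the 33 circles but 10 of the 33 diamonds lie below 0. No interval is drawn for Hoxa6, which had 0 counts on day 0 and 2 on day 14.

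Hoxd8 (ENSMUSG00000027102) was the member with the steadiest rise. Its normalized counts from day 0 to day 14 were 53.4, 72.4, 104, 132 and 205. It was higher in each library than in the one before, and the day 14 level was 3.83-fold that of day 0, a log2 ratio of 1.94 (1.50 to 2.39). From day 10 to day 14 it rose by a further 0.63 (0.35 to 0.92). With TPM its rise was 3.13. The length that RSEM assigned to Hoxd8 from its isoforms was 2634 bases on day 0 and 1883 on day 14, which adds to the rise in TPM. The median of all genes on day 14 also differed between the scalings, at 0.07 with TMM and 0.78 with TPM.

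The other 2 genes of paralog group 8, which act in the thoracic region as Hoxd8 does, went the other way. Hoxc8 was at 136, 107, 57.8, 60.8 and 37.2 normalized counts from day 0 to day 14, a fall of 3.61-fold or −1.85 (−2.39 to −1.34). Hoxb8 was at 66.5, 56.1, 49.9, 30.7 and 24.1, a fall of 2.75-fold or −1.46 (−2.16 to −0.79). The lowest value of both was that of day 14. In sum the group was level, at 0.06 (−0.18 to 0.31) on day 14 with TMM, while with TPM the sum was at 1.24. On day 0 the highest of the 3 per length was Hoxc8 with 22.3 TPM, and on day 14 it was Hoxd8.

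Paralog group 9, with genes of the thoracic and lumbar region, also split. Hoxb9 was at 232, 95.9, 157, 205 and 137 normalized counts. It was over 2-fold below day 0 on day 2 only, at −1.27 (−1.73 to −0.84), and was at −0.76 (−1.06 to −0.46) on day 14. Hoxc9 was at 114, 144, 26.3, 22.1 and 34.0, so that its level dropped between day 2 and day 5 and then stayed low, at −1.74 (−2.31 to −1.20) on day 14. Hoxa9 was at 42.6, 48.9, 47.8, 43.6 and 81.3, with 1 high library on the TMM scale, day 14, at 0.93 (0.40 to 1.49). Hoxd9 was at 28.7, 27.1, 27.1, 31.4 and 43.8, and its day 14 change of 0.61 (−0.08 to 1.32) was within counting error. The length that RSEM assigned to Hoxa9 was 3195 bases on day 0, 1708 on day 10 and 2047 on day 14. Its TPM on these days was 4.69, 20.2 and 25.8, so with TPM it was already above day 0 on day 10, by 1.90.

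**Figure D4:**
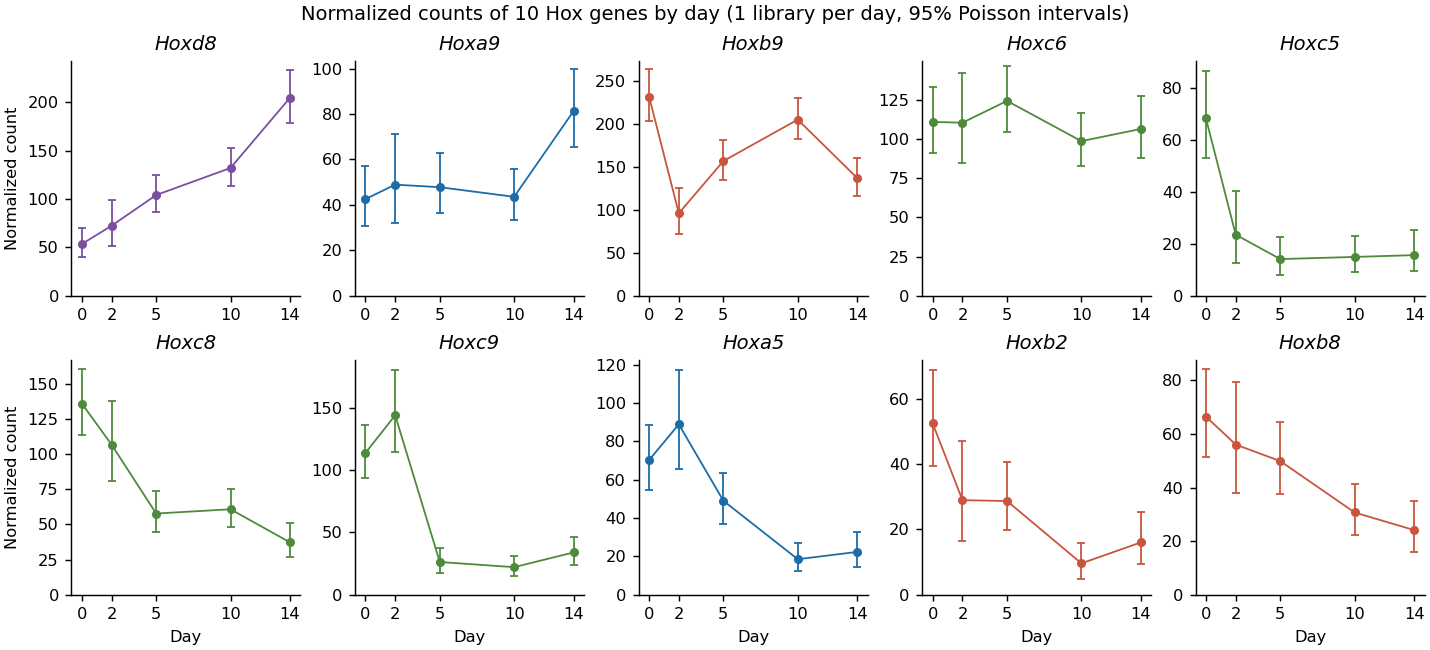
Normalized counts of 10 Hox genes against day, 1 library per day, with exact 95% Poisson intervals of the counts as bars and a separate vertical axis from 0 for each gene. Hoxd8 climbs from 53.4 to 205, Hoxc6 stays between 98.6 and 124, and Hoxc5, Hoxc8, Hoxc9, Hoxa5, Hoxb2 and Hoxb8 end below their day 0 intervals and are below day 0 with TPM too.

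Groups 10 to 13, which pattern the lumbar, sacral and tail region and the limbs, held 17.5% (15.7 to 19.4) of the Hox counts on day 0 and 15.4% (13.6 to 17.4) on day 14. Hoxa10 was at 32.7, 43.4, 51.6, 40.0 and 44.7 normalized counts and at 0.45 (−0.21 to 1.13) on day 14. Hoxc10, a gene of the hindlimb and lumbar region, was at 70.3, 27.1, 57.8, 47.2 and 37.1, and at −0.90 (−1.49 to −0.33). Hoxd10 was at 26.0, 23.5, 23.6, 11.1 and 18.2, over 2-fold low on day 10 and at −0.53 (−1.44 to 0.37) on day 14.

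Hoxa11, which patterns the forearm and lower leg, was at 41.5, 34.4, 45.8, 12.9 and 10.3 normalized counts. The first 3 libraries lie above the last 2, and the day 14 change was −1.95 (−3.02 to −1.002). Hoxd11, its partner in the limb, was at 28.7, 27.2, 5.02, 10.1 and 9.63, and at −1.55 (−2.70 to −0.50) on day 14. Both early libraries lay above the 3 later ones with TMM only. With TPM Hoxd11 was at 4.14, 2.36, 1.25, 4.46 and 2.89, highest on day 10. Its assigned length was 3367 bases on day 2 and 1804 on day 10. Hoxc11 had 10, 0, 4, 9 and 24 expected counts. It was the member that rose over 2-fold from day 10 to day 14, by 1.74 (0.58 to 3.03), against 4.73% of all genes, while the interval of its day 14 change from day 0, 1.12, reached 0. From day 10 to day 14, 3 members passed 2-fold downwards (8.33% of all genes), among them Hoxa6 and Hoxa13, each with 15 or fewer counts. The intervals of all 3 include 0, whereas 6.7% of all genes were over 2-fold lower with an interval below 0.

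Of group 13, which shapes the hand, the foot and the tail, Hoxd13 was the highest member with 45.5, 59.7, 38.5, 22.1 and 25.1 normalized counts, and at −0.86 (−1.60 to −0.15) on day 14. Hoxc13, known for its role in hair and nails, had 18, 2, 21, 14 and 22 expected counts, low on day 2 only. Hoxa13 had 5, 3, 7, 15 and 5. Hoxb13, with at most 4 counts, and both genes of group 12, with at most 6, were close to the limit of detection in every library.

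Groups 5 to 7, of the neck and thoracic levels, held genes that fell early, genes that fell late and genes that stayed level. Hoxc5 was at 68.3, 23.5, 14.1, 14.9 and 15.6 normalized counts. With TMM it had thus dropped by day 2 and stayed low, at −2.09 (−2.92 to −1.32) on day 14. With TPM it was at 8.23, 2.36, 3.40, 8.71 and 4.96, and did not stay low on day 10. Its assigned length was 2923 bases on day 0 and 1364 on day 10. The gene has a further limit. It shares 166 exonic bases with Hoxc10 on the same strand. Hoxa5, needed for the lung, diaphragm and neck vertebrae, was at 70.2, 88.9, 49.0, 18.5 and 22.3, with the last 2 libraries below the first 3, and at −1.65 (−2.37 to −0.98). Hoxb5 differed from both, at 24.7, 27.1, 23.6, 24.3 and 35.8 and a day 14 change of 0.53 (−0.22 to 1.31).

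Hoxc6 was the most level of the abundant members, at 111, 110, 124, 98.6 and 106 normalized counts, and at −0.06 (−0.44 to 0.33) on day 14. Hoxb7 was similarly level, at 56.4, 68.7, 76.3, 52.8 and 66.1, and at 0.23 (−0.29 to 0.75). For both, TPM gave changes above 0, of 0.86 and 1.12, close to the all-gene median of 0.78 with TPM. Hoxb6 was at 90.1, 70.6, 54.1, 31.4 and 60.7, lowest on day 10, from where it rose by 0.95 (0.38 to 1.53). Hoxa7 was at 24.7, 25.3, 21.0, 17.9 and 11.6, and at −1.09 (−2.18 to −0.07) on day 14. Hoxa6 had 0, 2, 1, 10 and 2.27 expected counts. Its day 10 level was at least 2.41-fold that of day 0, against a floor of 3 counts, and no fold is given for days 2 and 14, although it is among the members counted as over 2-fold higher there.

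Anterior genes moved apart by paralog group. Hoxb2, of the hindbrain and the branchial arches, was at 52.4, 28.9, 28.7, 9.60 and 16.0 normalized counts, and at −1.70 (−2.56 to −0.91) on day 14. Hoxa2 had 8, 12, 13.6, 12 and 6 expected counts, over 2-fold above day 0 on day 2 (1.45, 0.04 to 2.95) but not later.

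Group 3, of the neck, was the paralog group whose sum rose with an interval above 0. With TMM scaling its summed expression stood 1.01 (0.46 to 1.58) above day 0 on day 10 and 0.95 (0.37 to 1.54) above it at the end, and its 3 genes were each above day 0 on both days, also with TPM. Hoxb3 was at 25.2, 23.9, 20.5, 43.2 and 45.0 normalized counts, with the 2 latest libraries above the others, and at 0.85 (0.13 to 1.61) on day 14. Hoxd3 had 6, 4, 7, 33.5 and 15 expected counts, highest on day 10 at 1.99 (0.72 to 3.53). Hoxa3 had 7.29, 0, 14.7, 13.1 and 15.7, and its day 14 change of 1.05 (−0.32 to 2.57) was within counting error. Hoxb3 shares 52.9% of its exonic bases with the opposite-strand gene Hoxb3os, and Hoxd3 shares 9.26% with Hoxd4 on its own strand.

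Group 4, of the neck vertebrae and with a member in all 4 clusters, was level in sum, at −0.21 (−0.60 to 0.18) on day 14. Hoxc4 was at 59.4, 41.6, 31.5, 39.3 and 45.6 normalized counts, Hoxb4 at 25.7, 14.5, 24.7, 19.3 and 23.0, and Hoxd4 at 15.9, 21.7, 9.87, 22.8 and 22.3. None of the 3 passed 2-fold on any day. Hoxa4 had 15, 2, 8, 7 and 10 expected counts and was over 2-fold low on days 2 and 10. Of the sums of groups 2 to 13, those that fell most on day 10 were group 2 with −1.76 (−2.49 to −1.06), group 5 with −1.50 (−1.90 to −1.11) and group 11 with −1.45 (−2.03 to −0.89). With TPM group 5 was at 0.02.

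The TruSeq RNA kit named in the labels does not mark strand, so reads of a Hox gene and of an overlapping gene on the other strand cannot be told apart except through bases that are not shared. Of the 39 members 15 share exonic bases with another gene of the files, 8 on the same strand and 10 on the opposite strand. Inside the 4 clusters the annotation places 20 genes that are not Hox genes, and 12 of them had 10 or more counts. In the Hoxa cluster all 5 of these antisense or noncoding genes were over 2-fold lower on day 14, against 19.9% of all genes. Hoxaas3 had 82, 56, 33.8, 18 and 15 expected counts and was at −2.60 (−3.50 to −1.79). Hotairm1, a noncoding RNA, had 22, 17, 2, 9 and 6, and Hoxa11os, which covers 35.0% of the exonic bases of Hoxa11, had 47.1, 41, 46.7, 19 and 10.5, at −2.02 (−3.61 to −0.67) and −2.38 (−3.53 to −1.38). Hoxa11 and Hoxa11os thus both fell between day 5 and day 10. Hoxaas2 went from 13.7 to 3.30 and Gm15050 from 10 to 3 expected counts. The interval of Gm15050, at −1.88 (−4.38 to 0.07), included 0.

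In the other clusters the noncoding genes were sparse, apart from Gm53. Gm53 in the Hoxb cluster had 81.2, 31, 53.9, 121 and 66.0 expected counts, at −0.44 (−0.93 to 0.04) on day 14. Hoxb5os went from 13 to 4 and Hoxb3os from 13.7 to 6.74. Hotair, a noncoding RNA of the Hoxc cluster, had 0 on days 0, 2 and 5, 11 on day 10 and 4 on day 14. In the Hoxd cluster Haglr, a noncoding gene near Hoxd1, had 2, 3, 7, 12 and 14 expected counts, at 2.66 (0.54 to 5.84) on day 14, while Hoxd3os1 went from 5.96 to 8.01 and Gm28309 from 10.8 to 7.83.

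Within 200 kb of the cluster ends lie 16 protein-coding genes, 10 of them with 10 or more counts. On the Hoxc side Calcoco1 rose from 130 to 345 normalized counts, at 1.41 (1.12 to 1.71), Cbx5 was at 1.00 (0.80 to 1.22) and Smug1 at 0.35 (−0.27 to 0.98), while the summed Hoxc genes were at −0.87 (−1.07 to −0.68), or at 0.17 with TPM. Beside Hoxd, Lnpk was at 0.25 (−0.20 to 0.70) and Mtx2 at −0.12 (−0.46 to 0.23), without the rise of Hoxd8. Beside Hoxa, Skap2 was at −0.01 (−0.47 to 0.46). Beside Hoxb, Igf2bp1, an RNA-binding protein of fetal growth, fell from 197 to 35.8, at −2.46 (−2.99 to −1.97), Snf8 was at −1.55 (−1.76 to −1.33), Atp5g1 at −1.98 (−2.15 to −1.82) and Ube2z at −0.68 (−0.86 to −0.51).

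The TALE cofactors were measured in full, with all 9 at 10 or more counts. Pknox2 had 16, 13, 36, 101 and 107 expected counts and rose over 2-fold by day 14, at 2.59 (1.83 to 3.45). Meis2 was at −0.57 (−1.003 to −0.13), Meis1 at −0.16 (−0.61 to 0.28), Pbx3 at −0.20 (−0.79 to 0.38) and Pbx4, with 8 counts on day 0, at −0.82 (−2.78 to 0.97). Meis3 was at 0.34 (0.01 to 0.68), Pbx2 at 0.33 (0.05 to 0.61) and Pknox1 at 0.06 (−0.42 to 0.55). The median of the list was −0.16, against 0.07 for all genes. With TPM it was 0.80, against 0.78 for all genes, so the list stood below all genes with TMM only.

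All 30 Polycomb and MLL genes on the list were measured, and on day 14, 8 were over 2-fold higher (24.5% of all genes) and 1 lower (19.9%), with a median of 0.43 against 0.07 for all genes. At 8 of 30 the share that was higher is close to that of all genes. Cbx7, a Polycomb reader of methylated histone H3, was at 1.66 (0.30 to 3.26). Kdm6a, which removes the Polycomb mark, was at 1.58 (0.96 to 2.25), and Phf19, an accessory subunit of the complex that sets it, had 12 counts on day 0 and 2 on day 14, at −2.73 (−5.93 to −0.56). With TPM the list median was 1.31, against 0.78 for all genes. Of the caudal and even-skipped regulators, which act upstream of posterior Hox genes or beside them, 1 of 6, Gdf11, had 10 or more counts, and it was at 0.47 (0.13 to 0.81), while Cdx1, Cdx2, Cdx4, Evx1 and Evx2 were below 10 counts in every library.

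Other position genes had lower medians than the Hox genes on day 14. Of 24 transcription factors of limb, trunk and body wall, 19 had 10 or more counts, 9 were over 2-fold below day 0 (19.9% of all genes) and 2 above it (24.5%), with a median of −0.86 (−0.24 with TPM). Pitx1, which marks the hindlimb, had 122, 56, 59, 15 and 13 expected counts, at −3.38 (−4.33 to −2.55). Hand2, of the posterior limb bud, had 123, 34, 80.4, 30.4 and 16, at −3.09 (−3.94 to −2.33), and Msx2 had 36, 8, 6, 5.01 and 3, at −3.73 (−6.08 to −2.07). Meox1, a somite gene, had 0 counts on day 0 and 17, 81, 27 and 12 later. Of 19 head and forebrain homeobox genes 9 had 10 or more counts, 6 were over 2-fold lower and 1 higher, with a median of −2.07 (−0.97 with TPM). Alx1 went from 31 to 4 counts and Dlx2 from 65.2 to 16. The Hox median on day 14, −0.43, lay between the all-gene median of 0.07 and the medians of these 2 lists.

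Markers of several cell types moved over the same days. On day 14, 24.5% of all genes were over 2-fold higher than on day 0 and 19.9% lower. The summed normalized count of 8 fibroblast markers was between 20281 and 61427, lowest on day 2 and highest on day 14. Of these 8, 4 were over 2-fold higher on day 14 and 1 lower. The sum of 8 Schwann cell and neural crest markers went from 130.5 on day 0 to 10765 on day 14. Of these, 7 of 8 were over 2-fold higher, and Sox10 alone went from 7 to 2230 expected counts. The sum of 8 macrophage markers was 90.9 on day 0 and between 667 and 939 later. Muscle markers, 3 of 5 at 10 or more counts, fell from 627 to 38.5, and all 3 were over 2-fold lower on day 14. Endothelial markers, 2 of 4 at 10 or more counts, went from 239 to 7.15, with 1 of the 2 over 2-fold lower. The neuron markers, 4 of 8 at 10 or more counts, were at 668, 354, 240, 258 and 376 on the 5 days, highest on day 0. In TPM their sum was 103, 50.8, 60.5, 86.2 and 119, highest on day 14. On that day 2 of the 4 were over 2-fold higher than on day 0 and 2 lower. The defining muscle gene Myod1 was at 1 count on day 0 and at 0 later. The part of these shifts in the Hox changes was not tested.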

How the data were processed

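RNA of 5 cultures of MEFs, 1 per day, was prepared with the TruSeq RNA kit, which does not mark strand. The authors deposited expected counts per gene, which RSEM estimates and which need not be whole, and beside them TPM values, which the authors scaled for gene length and to 1000000 per library. The deposited FPKM values were used for no result. The submitters' processing notes name Bowtie, RSEM and mm10, and versions, filters and the gene annotation are not given in the sources used here. Groups were taken from the labels.

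Symbols and coordinates came from GENCODE M21 (GRCm38), which matched 27247 of 27729 identifiers. Counts were rounded for library sizes by TMM (edgeR 4.0.16, R 4.3.3). Changes are log2 ratios of normalized counts plus 1, counted over 2-fold for those genes that reached 10 expected counts in at least 1 library. Values with an interval are log2 ratios of rounded counts without a pseudocount, with exact 95% Clopper-Pearson intervals (scipy 1.17.1). A fold against 0 counts is a bound against a floor of 3 counts in that library, which is 0.771 to 1.33 per 1000000 counts. With 1 library per day no p-value is given. Promoter windows came from RefSeq (GRCm38.p6).

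Members with 10 or more counts were named, of each further list up to 4 with the largest change on day 14 and the TALE cofactors, and genes in or within 200 kb of a cluster by position, apart from some genes that are not reported here. Lists cover cofactors, chromatin regulators, position genes and cell type markers. The members and lists were chosen with earlier results of these data known. Alternatives were DESeq2 size factors (1.42.0), total counts, TPM, a pseudocount of 5, other filters and thresholds, results without day 2, TPM shares and posterior genes from group 10. Changes relative to the all-gene median and results without Hoxd8 were added after seeing the data. The computations were tested on simulated data (Python 3.11.15, numpy 2.4.6, pandas 2.3.3, matplotlib 3.10.9). Other experiments of the study were not analysed here.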

Additional observations from a re-analysis of the deposited data

How the results depend on the processing

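Of 232 recomputed counts, sums and shares 124 kept their direction and stayed near the reported value, and DESeq2 size factors moved none of them. The largest effect was that of TPM. With TPM, 1, 3, 12 and 11 members were over 2-fold above day 0 on days 2, 5, 10 and 14, 3 were below it on day 10 and 1 on day 14. Of all genes 7.9%, 32%, 52.9% and 41.6% were then above day 0 and 6.77% and 6.97% below it, so the members above were a smaller share than that of all genes on each day. The log2 changes of the summed Hox TPM were −0.51, 0.39, 0.73 and 0.61 on the 4 days and −0.11 from day 10 to day 14. By cluster they were 0.69, 0.83 and 0.59 for Hoxa and 0.33, 0.64 and 0.42 for Hoxb on days 5, 10 and 14, −0.61, 0.11, 0.47 and 0.17 for Hoxc and −0.13, 0.78, 1.39 and 1.77 for Hoxd on days 2, 5, 10 and 14. The day 10 change turned positive for Hoxb8 (0.26), Hoxc5 (0.073), Hoxc8 (0.18), Hoxd11 (0.087) and Hoxd13 (0.11). With total counts 3, 5 and 7 members were over 2-fold higher on days 5, 10 and 14 (28.6%, 39.3% and 32.4% of all genes) and 7 lower on day 10 (14.5%). The summed changes were then −0.024, −0.038 and −0.011 on days 5, 10 and 14 and 0.027 from day 10 to day 14. For the clusters they were 0.31, −0.14 and −0.036 (Hoxa), −0.033, 0.0096 and −0.14 (Hoxb), −0.43, −0.48 and −0.52 (Hoxc) and 0.43, 0.75 and 1.05 (Hoxd). Relative to the all-gene median, 2 members were over 2-fold higher on day 14 with TMM and 2 with TPM, and with TPM 1 was higher on day 5 and 1 lower from day 10 to day 14. For these counts relative to the median no share of all genes is given.

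Stricter calls kept fewer members. Except where an interval is required, these counts are given without the share of all genes, which can change with the setting too. Hence they do not compare the members with all genes. With a pseudocount of 5, 1 member was over 2-fold higher on day 2 and 1 on day 14, and 0 were lower from day 10 to day 14. With a mean of 20 or more counts, 0, 1 and 1 members were higher on days 2, 10 and 14 and 1 on any later day, 3 were lower on day 2 and 3 on day 5, and from day 10 to day 14 0 were higher and 0 lower. Over 4-fold, 1, 1 and 0 were higher on days 2, 10 and 14 and 1 on any later day, 3, 4 and 2 were lower on days 2, 10 and 14 and 8 on any later day, and from day 10 to day 14 0 were higher and 0 lower. Where the interval also had to exclude no change, 1 was higher on day 2 (11.6% of all genes), 1 on day 14 (22.1%), and 0 were lower from day 10 to day 14 (6.7%), while 13 were lower than day 0 on day 10 (21.8%) and 10 on day 14 (18.9%). Without a filter 1 was higher on day 5.

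Posterior genes held 38.7%, 35.0%, 36.5%, 38.0% and 34.6% of the Hox TPM on the 5 days, and groups 10 to 13 held 17.5%, 16.9%, 20.4%, 15.4% and 15.4% of the Hox counts. In TPM, Hoxd held 15.1%, 15.2% and 18.3% on days 2, 5 and 10, and on day 10 Hoxa held 18.2% and Hoxc 29.4%. Without Hoxd8, posterior genes held 44.3% on day 0 and 44.9%, 47.0% and 46.1% on days 5, 10 and 14, Hoxd held 9.85%, 13.4%, 9.97%, 12.0% and 12.5% on the 5 days, Hoxb 38.0%, 41.0% and 38.3% and Hoxc 29.4%, 29.7% and 29.9% on days 5, 10 and 14, and Hoxa 17.3% and 19.2% on days 10 and 14. The summed Hoxd change without Hoxd8 was −0.46, −0.35 and −0.22 on days 5, 10 and 14 with TMM and 0.23, 0.78 and 0.70 with TPM. The cause of the difference between TPM and TMM was not tested.

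No paired analysis was possible because each day has 1 library and the labels carry no replicate numbers, and leaving out a replicate was not possible for the same reason. With most members under 100 counts, changes under about 2-fold lay within counting error for most genes.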

Other observations

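RSEM weights the length of a gene by the isoforms to which it assigns the reads, so the deposited lengths show where the estimated isoform mix of a Hox gene differed between libraries. The length of Hoxc5 was 2923 bases on days 0 and 2, 2393 on day 5, 1364 on day 10 and 2044 on day 14. That of Hoxa13 was 2395 bases on days 0, 2 and 5, 1968 on day 10 and 1203 on day 14, from 5 to 15 counts. Hoxa9 had 3195 bases on day 0, 1708 on day 10 and 2047 at the end, Hoxd11 from 2439 on day 0 to 1804 on day 10, while Hoxd8 started at 2634 and reached 2485 on day 10 and 1883 in the last library. Hoxd4 went the other way, from 1426 bases on day 0 to 2118 on day 10. Hoxd8 had 54 to 229 counts behind these estimates in the libraries of days 0, 5, 10 and 14. Isoforms were not analysed here, and no interval of a length was computed.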
